A study of Mus musculus with 2 samples.

Results

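The 6 genes described here encode receptors of the tumour necrosis factor (TNF) receptor family that act as costimulators of T cells: Tnfrsf1b (TNFR2), Tnfrsf9 (4-1BB), Tnfrsf4 (OX40), Tnfrsf18 (GITR), Tnfrsf14 (HVEM) and Cd27. They were chosen by name, with earlier results of these data known. Each had 1 row in both count matrices, so all 6 were found among 55357 gene rows. Such receptors carry no death domain. When a trimeric ligand on a neighbouring cell gathers them, they recruit TRAF adaptor proteins, which lead to kappaB transcription factors and to signals for survival and division. Several of them are displayed by regulatory T cells or appear only after the T cell receptor has been engaged, whereas Cd27 is already carried by naive cells.

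The cells came from hearts of wild-type (WT) mice 7 days after myocardial infarction, in which heart muscle dies for want of blood flow. The mice had been injected with anti-PD1, an antibody against the inhibitory T cell receptor encoded by Pdcd1, or with anti-IgG, the comparison antibody. There was 1 library per antibody. The number of hearts per library, the mouse strain, age and antibody dose are not given by the labels used here. Every difference between the libraries below is thus one between single libraries, without replication and without a p-value. The anti-PD1 library held 6026 barcodes and 29046341 UMIs (molecular barcodes that count RNA molecules), of which 5835 cells were kept, and the anti-IgG library held 4380 barcodes and 22806806 UMIs, of which 4309 cells were kept. The kept cells had medians of 3858 UMIs in the anti-PD1 library and 4079 UMIs in the anti-IgG library.

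Although the labels call the cells T cells, a UMI of Cd3d, Cd3e or Cd3g, subunits of the T cell receptor complex, was present in 91.7% of kept anti-PD1 cells and 92.6% of kept anti-IgG cells. B, myeloid, dendritic, endothelial and fibroblast markers were also present. Cells were therefore placed in gates from marker UMIs, none of them a UMI of the 6 receptors. The Foxp3 gate, named for the transcription factor of regulatory T cells, held 289 anti-PD1 and 243 anti-IgG cells. The effector gate (genes such as S100a4, Ccl5 and Cxcr6) held 1314 anti-PD1 and 1172 anti-IgG cells, and the naive gate (genes such as Lef1 and Dapl1) held 1631 anti-PD1 and 1287 anti-IgG cells. The gamma-delta gate (genes of the gamma-delta receptor and Scart1 or Scart2) held 770 anti-PD1 and 385 anti-IgG cells, and the NK-marker gate (genes such as Ncr1 and Klrb1c) held 155 anti-PD1 and 76 anti-IgG cells. A Cd3 UMI was not required in the NK-marker gate, where 92.9% of anti-PD1 and 94.7% of anti-IgG cells had one. The remaining Cd3 cells, called other Cd3, numbered 827 in the anti-PD1 and 590 in the anti-IgG library. These 6 T gates together held 4986 anti-PD1 cells and 3753 anti-IgG cells. Cells with Cd3 and markers of another lineage (377 anti-PD1 and 243 anti-IgG cells) were left out as mixed, and 46 barcodes were shared between the libraries. A level below is the number of UMIs of a gene per 10000 UMIs summed over the cells of a gate. All intervals are exact 95% intervals that cover counting error only, and since UMIs can lie together in few cells, they are too narrow for genes held by few cells.

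In all, 5 of the receptor genes lie on mouse chromosome 4 in the RefSeq annotation of build GRCm38.p6, all within 10.8 Mb. They are Tnfrsf1b (4:145212368-145246870, minus strand), Tnfrsf9 (4:150920155-150946104, plus strand), Tnfrsf14 (4:154918487-154928620, minus strand), Tnfrsf4 (4:156013595-156016613, plus strand) and Tnfrsf18 (4:156026322-156028894, plus strand). Tnfrsf4 and Tnfrsf18 were separated by 9708 bases, and Cd27 lies apart from them (6:125232620-125237136, minus strand). The Tnfrsf4 locus overlaps Sdf4 on the same strand, and on the opposite strand Tnfrsf18 overlaps Gm16008 and Cd27 overlaps E130112N10Rik, both long noncoding RNA genes. The labels do not say how reads in these overlaps were assigned. In the T gates, Sdf4 had an anti-PD1 over anti-IgG ratio of 1.04 (0.999 to 1.08), and Gm16008 had 23 anti-PD1 and 16 anti-IgG UMIs.

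The start-site windows of the receptor genes with higher levels in the anti-PD1 library, Tnfrsf1b and Tnfrsf9, are shown because their UMIs differed most between the libraries, and both Tnfrsf9 windows are given because they differ in motif content. Each window holds 250 bases before and 50 bases after an annotated start (RefSeq, GRCm38.p6). Windows were matched for 6 of 6 genes and scanned on both strands for the kappaB consensus, the AP-1 motif TGANTCA, the cAMP response element TGACGTCA and the Nr4a motif AAAGGTCA. Capitals mark matches.
Tnfrsf9 internal start (chr4:150927749-150928048, plus strand): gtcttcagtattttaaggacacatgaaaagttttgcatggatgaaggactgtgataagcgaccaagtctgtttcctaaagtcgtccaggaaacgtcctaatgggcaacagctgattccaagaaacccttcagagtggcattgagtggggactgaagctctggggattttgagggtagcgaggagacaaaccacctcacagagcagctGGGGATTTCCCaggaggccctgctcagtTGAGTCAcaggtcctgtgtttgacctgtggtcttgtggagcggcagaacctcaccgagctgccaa
Tnfrsf9 first start (chr4:150919905-150920204, plus strand): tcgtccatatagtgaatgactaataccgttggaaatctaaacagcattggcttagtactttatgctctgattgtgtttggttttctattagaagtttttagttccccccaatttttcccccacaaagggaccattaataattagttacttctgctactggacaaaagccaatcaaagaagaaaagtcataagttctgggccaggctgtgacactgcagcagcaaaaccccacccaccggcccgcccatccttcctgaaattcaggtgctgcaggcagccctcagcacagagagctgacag
Tnfrsf1b start (chr4:145246821-145247120, minus strand, shown 5′ to 3′ of the gene): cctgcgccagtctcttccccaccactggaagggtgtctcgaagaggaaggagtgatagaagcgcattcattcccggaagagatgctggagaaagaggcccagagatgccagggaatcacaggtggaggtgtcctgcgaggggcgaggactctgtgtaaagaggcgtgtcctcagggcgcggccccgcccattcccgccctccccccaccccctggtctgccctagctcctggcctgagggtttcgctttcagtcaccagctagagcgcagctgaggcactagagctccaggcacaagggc
The internal Tnfrsf9 window was the only one of the 7 windows of the 6 genes with a match. It held overlapping kappaB matches that began 43 and 42 bases before the start, the second of which reads as a match on both strands, and an AP-1 match that began 15 bases before the start. Of 32841 mouse start-site windows of this length, 4.51% held a kappaB match, 7.81% an AP-1 match, 1.79% the cAMP response element and 1.51% the Nr4a motif. A match describes letters in a window, and the 3′ counts do not tell which Tnfrsf9 start was used.

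In the T gates together, Tnfrsf1b and Tnfrsf9 were higher in the anti-PD1 library and Tnfrsf14 was lower. A gene was called higher or lower when its ratio was at least 1.5 or at most 0.667 and its interval excluded 1, among genes with at least 100 summed UMIs. By this rule 2 of 6 receptors were higher, against 5.47% of the 10681 genes measured, and 1 of 6 was lower, against 7.92% of genes. Tnfrsf1b had 4456 UMIs in the anti-PD1 library and 997 in the anti-IgG library, and a ratio of 3.57 (3.33 to 3.83). Tnfrsf9 had 1944 anti-PD1 and 762 anti-IgG UMIs and a ratio of 2.04 (1.87 to 2.22). Tnfrsf14 had 199 anti-PD1 and 240 anti-IgG UMIs and a ratio of 0.662 (0.546 to 0.803), just past the limit. The other receptors did not pass the fold limit: the ratio was 1.42 (1.33 to 1.51) for Tnfrsf4, 1.17 (1.11 to 1.23) for Tnfrsf18 and 1.11 (1.04 to 1.18) for Cd27. The median log2 ratio was 0.36 over the 6 receptors and -0.10 over all 10681 genes, and relative to the median gene the ratio of Tnfrsf4 was 1.53 and that of Tnfrsf14 was 0.712.

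**Figure D1:**
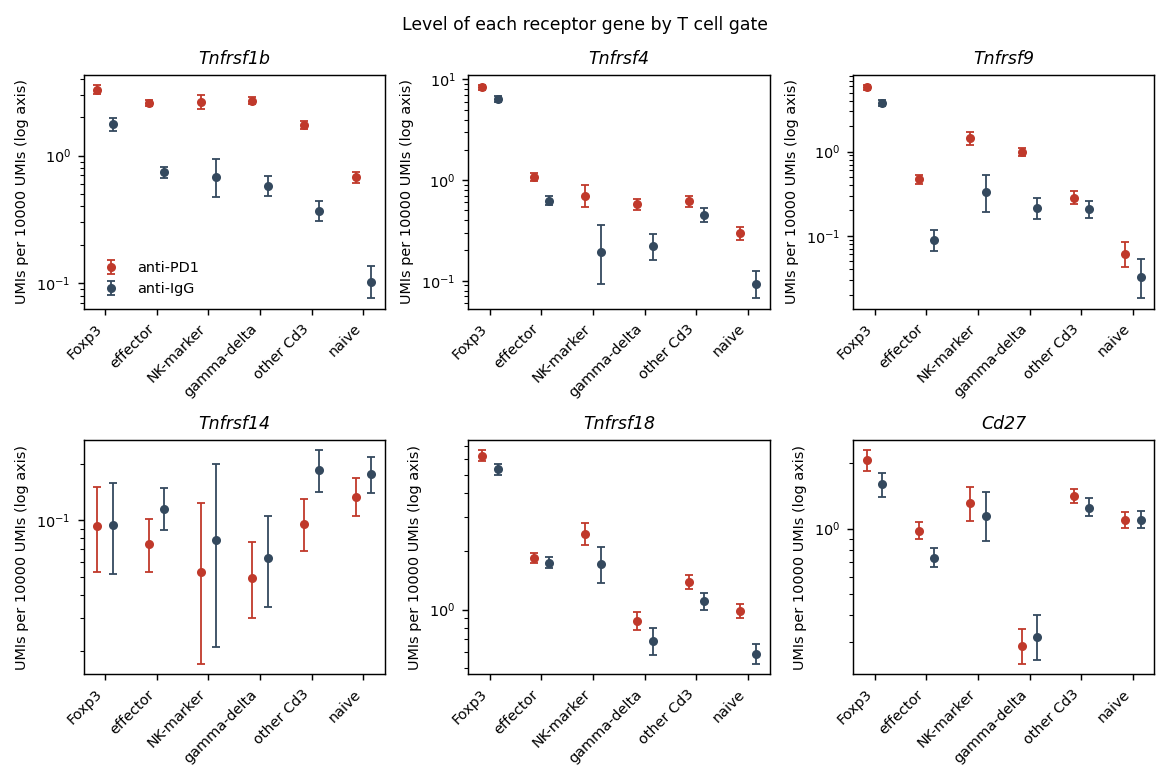
Level of each receptor gene (UMIs per 10000 UMIs, log axis) in the 6 T cell gates, with anti-PD1 in red on the left and anti-IgG in dark blue on the right of each pair. Points are 1 library each and bars are exact 95% Poisson intervals. Tnfrsf1b lay higher in the anti-PD1 library in all 6 gates, and Tnfrsf4, Tnfrsf9 and Tnfrsf18 were highest in the Foxp3 gate of both libraries.

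Tnfrsf1b encodes TNFR2, which binds TNF, in particular its membrane-bound form, and lymphotoxin alpha. It was highest in the Foxp3 gate, with a level of 3.28 in the anti-PD1 library and 1.76 in the anti-IgG library. In the anti-PD1 library the gamma-delta, NK-marker and effector gates followed at 2.70, 2.64 and 2.59, and their ratios to one another included 1. The anti-IgG levels of the same gates were 0.582, 0.682 and 0.739. The naive gate was lowest, at 0.680 in the anti-PD1 library and 0.103 in the anti-IgG library. The Foxp3 gate thus held 4.83 times the naive level (4.24 to 5.51) in the anti-PD1 library and 17.1 times (12.6 to 23.8) in the anti-IgG library.

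The anti-PD1 over anti-IgG ratio of Tnfrsf1b passed the limit in each of the 6 T gates, and was largest where the anti-IgG level was smallest. It was 6.61 (4.89 to 9.11) in the naive gate, from 387 anti-PD1 and 48 anti-IgG UMIs. In the other Cd3 and gamma-delta gates it was 4.71 (3.91 to 5.71) and 4.65 (3.87 to 5.62). In the NK-marker and effector gates it was 3.88 (2.71 to 5.69) and 3.51 (3.13 to 3.93). The Foxp3 gate had the smallest ratio, 1.86 (1.60 to 2.16), and its interval overlapped none of the other 5. Between CD4 and CD8 cells the ratios were close, at 3.27 (2.75 to 3.90) in CD4 effector and 3.20 (2.61 to 3.95) in CD8 effector cells, and at 6.72 (4.09 to 11.7) in CD4 naive and 5.86 (3.60 to 10.0) in CD8 naive cells. The UMIs were spread over many cells: no anti-PD1 cell of the T gates held more than 15, and without the 10 cells of each library that held most, the ratio was 3.75.

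Outside the T gates, Tnfrsf1b did not show the same difference in every lineage. In the myeloid gate, whose cells are known to express TNFR2, it had a level of 1.43 in 117 anti-PD1 cells and 1.68 in 52 anti-IgG cells, and the ratio of 0.854 (0.607 to 1.21) included 1. In plasmacytoid dendritic cells the ratio was 1.07 (0.461 to 2.54). In the B gate it had 24 anti-PD1 and 2 anti-IgG UMIs, a ratio of 6.95 with a wide interval of 1.72 to 60.7. The B gate level of 0.556 in the anti-PD1 library was near the naive T cell level of 0.680, and the anti-IgG levels were 0.0800 in B and 0.103 in naive cells.

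Tnfrsf9 encodes 4-1BB, a receptor of activated T cells and NK cells. Much of it lay in the Foxp3 gate: that gate was 5.80% of anti-PD1 and 6.47% of anti-IgG T gate cells, and held 51.2% (48.9 to 53.4) of the anti-PD1 and 73.8% (70.5 to 76.8) of the anti-IgG Tnfrsf9 UMIs. The Foxp3 level was 5.79 in the anti-PD1 library and 3.78 in the anti-IgG library. The NK-marker and gamma-delta gates came next, at 1.44 and 0.987 in the anti-PD1 library and 0.331 and 0.215 in the anti-IgG library. Effector cells had 0.471 in the anti-PD1 library and 0.0888 in the anti-IgG library, and naive cells had 0.0615 and 0.0322 in the same order of libraries. The Foxp3 gate held 94.2 times the naive level (67.3 to 136) in the anti-PD1 library and 118 times (70.7 to 212) in the anti-IgG library. The naive levels rested on 35 UMIs in 24 anti-PD1 cells and 15 UMIs in 6 anti-IgG cells, 7 of the 15 in 1 cell. Of the 562 anti-IgG Foxp3 UMIs, 60 lay in 1 cell. The size of these ratios is thus less certain than their intervals.

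Between the libraries, the Tnfrsf9 ratio was 1.38 (1.03 to 1.87) among other Cd3 cells, under the fold limit, and passed the limit in 4 gates. It was 1.53 (1.38 to 1.70) in the Foxp3 gate and 5.30 (3.87 to 7.40) in the effector gate. It was 4.60 (3.40 to 6.34) in the gamma-delta gate and 4.36 (2.62 to 7.70) in the NK-marker gate. In CD8 effector cells it was 9.99 (4.90 to 23.7), from 115 anti-PD1 and 8 anti-IgG UMIs, and 35 of the 115 lay in 1 cell. The effector ratio was 3.12 with each cell weighted alike and 1.68 with cells thinned to 1000 UMIs, so its size depended on how cells were weighted. The Foxp3 ratio was 1.42 with cells thinned and 1.45 with stricter gates, under the fold limit. The NK-marker ratio was 1.05 with stricter gates, and without the 5 cells of each library with most Tnfrsf9 UMIs it was 9.42 in the NK-marker and 11.0 in the gamma-delta gate. The gamma-delta gate held 20.5% (18.7 to 22.4) of anti-PD1 and 6.30% (4.68 to 8.27) of anti-IgG Tnfrsf9 UMIs, with 15.4% of anti-PD1 and 10.3% of anti-IgG T gate cells. The naive gate, with 35 anti-PD1 and 15 anti-IgG UMIs, was below the minimum for a call.

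Tnfrsf4 encodes OX40, which in mice is carried by regulatory T cells and appears on CD4 cells after activation. Its level in the Foxp3 gate was 8.33 in the anti-PD1 library and 6.42 in the anti-IgG library. Effector cells followed, at 1.07 in the anti-PD1 and 0.626 in the anti-IgG library, and naive cells had 0.295 in the anti-PD1 and 0.0922 in the anti-IgG library. The Foxp3 gate held 52.1% (50.2 to 54.0) of anti-PD1 and 61.7% (59.2 to 64.1) of anti-IgG Tnfrsf4 UMIs. Among effector cells it followed the CD4 lineage: CD4 cells had 17.4 times the CD8 level (11.3 to 28.1) in the anti-PD1 library and 11.6 times (6.54 to 22.8) in the anti-IgG library.

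Although its overall ratio stayed under the fold limit, Tnfrsf4 was higher in the anti-PD1 library in 3 gates. The ratio was 3.20 (2.28 to 4.59) in the naive gate, 2.62 (1.92 to 3.64) in the gamma-delta gate and 1.72 (1.5 to 1.97) in the effector gate. It was 1.30 (1.20 to 1.41) in the Foxp3 gate and 1.36 (1.12 to 1.67) among other Cd3 cells. The call in the effector gate as a whole rested on how cells were weighted, since the ratio was 1.46 with each cell weighted alike and 1.32 with cells thinned to 1000 UMIs. The effector gate held 399 CD4 and 473 CD8 cells in the anti-PD1 library and 565 CD4 and 281 CD8 cells in the anti-IgG library. In CD4 effector cells the ratio was 1.90 (1.60 to 2.26). In CD8 effector cells it was 1.27 (0.604 to 2.82), from 22 anti-PD1 and 12 anti-IgG UMIs. The part of this make-up in the effector ratio was not tested. Of the 232 anti-PD1 UMIs of the gamma-delta gate, 36 lay in 1 cell, and the ratio there was 1.90 with each cell weighted alike and 4.69 with cells thinned. The NK-marker gate had 66 anti-PD1 UMIs, 25 of them in 1 cell, and 10 anti-IgG UMIs, below the minimum for a call.

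Tnfrsf18 encodes GITR, which regulatory T cells carry at rest. Its level was 6.27 in the Foxp3 gate of the anti-PD1 library and 5.31 in that of the anti-IgG library. The NK-marker and effector gates had 2.47 and 1.85 in the anti-PD1 library and 1.72 and 1.75 in the anti-IgG library. The gamma-delta and naive gates were lowest, at 0.876 and 0.984 in the anti-PD1 library and 0.689 and 0.592 in the anti-IgG library, and the ratio of these gates to each other included 1 in both libraries. Effector CD4 cells had 2.17 times the CD8 level (1.84 to 2.57) in the anti-PD1 library and 2.01 times (1.67 to 2.43) in the anti-IgG library. Only the naive gate passed the limit between the libraries, with a ratio of 1.66 (1.44 to 1.93), while the effector ratio of 1.06 (0.967 to 1.16) included 1. The naive ratio ranged over 1.62 to 1.78 under the alternatives run within gates.

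Cd27, whose ligand is Cd70, is known to be kept by naive and memory cells and lost by late effector cells, and in mice it is absent from the gamma-delta cells that make interleukin 17. Its level was 2.06 in Foxp3, 1.10 in naive and 0.979 in effector cells of the anti-PD1 library, and 1.60, 1.10 and 0.735 in the same gates of the anti-IgG library. The gamma-delta gate stood apart at 0.289 in the anti-PD1 and 0.318 in the anti-IgG library. This was 0.264 times the naive level (0.215 to 0.322) in the anti-PD1 library and 0.288 times (0.222 to 0.370) in the anti-IgG library. Effector CD4 cells had 0.522 times the CD8 level (0.416 to 0.651) in the anti-PD1 library and 0.488 times (0.383 to 0.620) in the anti-IgG library, the reverse of Tnfrsf4 and Tnfrsf18. No gate passed the limit between the libraries, where the largest ratios were 1.33 (1.17 to 1.52) in effector and 1.29 (1.09 to 1.53) in Foxp3 cells, and the naive ratio was 0.996 (0.885 to 1.12).

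Tnfrsf14 encodes HVEM, which binds the ligand LIGHT (Tnfsf14) and also the inhibitory receptor Btla and the receptor Cd160. It had few UMIs, and its level was higher in the naive than in the effector gate. The naive gate had 0.133 in the anti-PD1 and 0.176 in the anti-IgG library, and the effector gate 0.0745 in the anti-PD1 and 0.115 in the anti-IgG library. The effector level was 0.558 times the naive one (0.371 to 0.829) in the anti-PD1 library and 0.656 times (0.463 to 0.925) in the anti-IgG library. Between the libraries it was lower in anti-PD1 other Cd3 cells, at 0.517 (0.342 to 0.774) from 42 anti-PD1 and 65 anti-IgG UMIs, and in effector cells, at 0.646 (0.422 to 0.978) from 40 anti-PD1 and 61 anti-IgG UMIs. The effector ratio was 0.732 with each cell weighted alike, outside the limit. In the naive gate the ratio of 0.759 (0.548 to 1.05) included 1. The ratio over all T gates crossed out of the limit with each cell weighted alike (0.704) and with the same gate mix in both libraries (0.680).

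**Figure D2:**
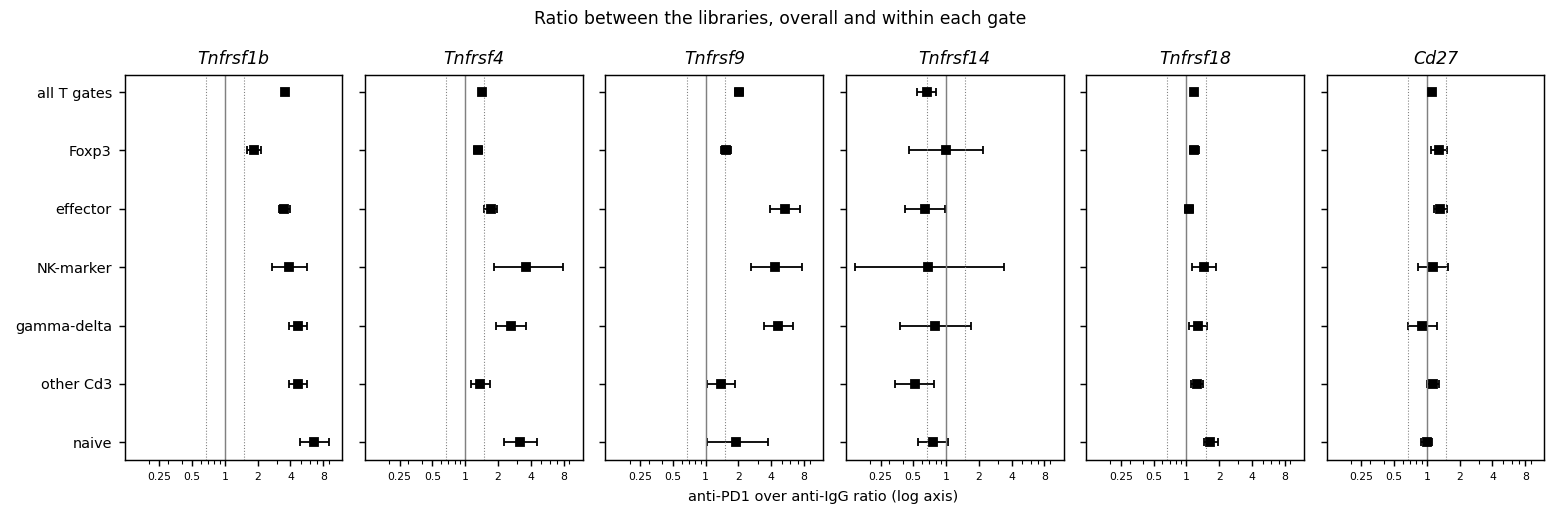
Ratio of the anti-PD1 over the anti-IgG level (log axis) for each receptor gene in all T gates together and in each gate. Squares are ratios, bars exact 95% counting intervals, the solid line is 1 and dotted lines mark the fold limits of 1.5 and 0.667. Tnfrsf1b lay right of the limit in every gate, with its smallest ratio, 1.86, in the Foxp3 gate.

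Set against all genes of the same gate, the receptors called were as follows. The counts describe a set chosen with earlier results of these data known. In the Foxp3 gate 2 of the 5 receptors with enough UMIs were higher (4.32% of genes) and 0 were lower (6.08% of genes). In the effector gate 3 of 6 were higher (5.24% of genes) and 1 was lower (6.88% of genes), and in the gamma-delta gate 3 of 5 were higher (5.59% of genes) and 0 lower (6.16% of genes). In the naive gate 3 of 5 were higher (4.64% of genes) and 0 lower (6.71% of genes), and in the NK-marker gate 2 of 4 were higher (9.09% of genes) and 0 lower (6.71% of genes). Among other Cd3 cells 1 of 6 was higher (5.32% of genes) and 1 was lower (6.12% of genes). Tnfrsf1b was among the receptors called in each of these gates, and Tnfrsf9 in the Foxp3, effector, gamma-delta and NK-marker gates. Some of the calls counted fell outside the fold limit under alternatives given above. These were Tnfrsf4 and Tnfrsf14 in the effector gate and Tnfrsf9 in the Foxp3 and NK-marker gates.

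Between gates, the receptors were counted only where the same call held in both libraries. Over the naive gate, Foxp3 cells were higher for 4 of the 5 receptors measured (19.0% of genes) and lower for 0 (5.69% of genes), namely higher for Tnfrsf9, Tnfrsf4, Tnfrsf18 and Tnfrsf1b. Over the effector gate, Foxp3 cells were higher for 4 of 5 (5.19% of genes) and lower for 0 (4.03% of genes), with Cd27 in place of Tnfrsf1b. Effector cells were higher than naive cells for Tnfrsf4, Tnfrsf18 and Tnfrsf1b, 3 of 5 (20.0% of genes), and lower for Tnfrsf14, 1 of 5 (5.55% of genes). Tnfrsf9 had too few UMIs for a call there, at 7.66 times (5.37 to 11.2) the naive level in the anti-PD1 and 2.76 times (1.52 to 5.32) in the anti-IgG library. Gamma-delta cells were lower than effector cells for 3 of 4 receptors (6.30% of genes), namely Tnfrsf4, Tnfrsf18 and Cd27, and higher for 0 (6.69% of genes). Tnfrsf9 and Tnfrsf14 had too few UMIs for a call. Tnfrsf9 was at 2.10 times (1.79 to 2.46) the effector level in the anti-PD1 and 2.42 times (1.58 to 3.69) in the anti-IgG library. Tnfrsf14 was at 0.664 times (0.368 to 1.16) and 0.543 times (0.281 to 0.983) in the same order. Over naive cells, gamma-delta cells were higher for Tnfrsf1b, 1 of 3 (20.9% of genes), and lower for Cd27, 1 of 3 (8.03% of genes). Tnfrsf18 was measured and called neither. It was at 0.891 (0.777 to 1.02) times the naive level in the anti-PD1 and 1.16 (0.950 to 1.42) times in the anti-IgG library. Tnfrsf9, Tnfrsf4 and Tnfrsf14 had too few UMIs for a call. For them the anti-PD1 and anti-IgG values were 16.1 (11.4 to 23.4) and 6.68 (3.68 to 12.8) times for Tnfrsf9. They were 1.95 (1.59 to 2.39) and 2.38 (1.55 to 3.67) times for Tnfrsf4, and 0.371 (0.215 to 0.613) and 0.356 (0.187 to 0.633) times for Tnfrsf14. Effector CD4 cells were higher than CD8 cells for 2 of 4 (2.66% of genes) and lower for 1 of 4, Cd27 (1.94% of genes).

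**Figure D3:**
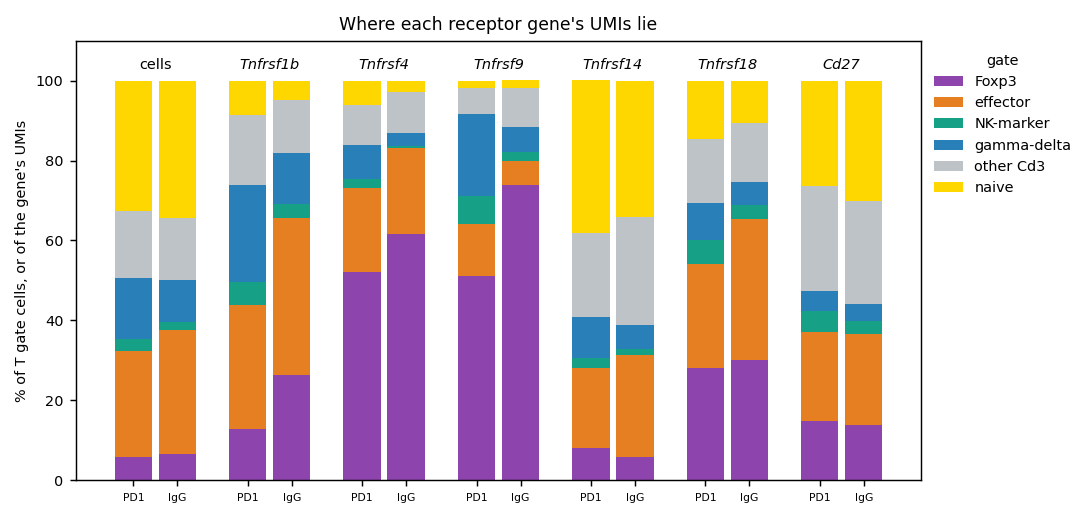
Share of T gate cells (first pair of bars) and of each receptor gene's UMIs (other pairs) that fell in each gate, in percent, with anti-PD1 (PD1) left of anti-IgG (IgG) in each pair. The Foxp3 gate was 5.80% of anti-PD1 and 6.47% of anti-IgG cells but held 51.2% and 73.8% of their Tnfrsf9 UMIs.

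Within the Foxp3 gate, cells with a UMI of Klrg1, Il1rl1, Ccr8 or Pparg, markers of tissue regulatory T cells, had more of 4 receptors than cells without one. They numbered 145 of the anti-PD1 and 132 of the anti-IgG Foxp3 cells. Of the 5 receptors measured 4 were higher in both libraries (6.02% of genes) and 0 lower (2.82% of genes). Tnfrsf9 was 6.41 times higher (5.12 to 8.11) in the anti-PD1 library and 9.69 times higher (6.67 to 14.6) in the anti-IgG library, and Tnfrsf4 was 2.71 times (2.37 to 3.12) and 3.73 times (3.07 to 4.56) higher in the same order. Tnfrsf1b was 2.01 times (1.65 to 2.47) higher in the anti-PD1 library and 2.61 times (1.88 to 3.70) in the anti-IgG library, and Tnfrsf18 was 1.99 times (1.72 to 2.30) and 2.11 times (1.77 to 2.52) higher. Cd27 did not follow, at 0.823 times (0.663 to 1.02) and 0.893 times (0.681 to 1.18). Cells with such a UMI were also deeper, with medians of 6443 UMIs against 3305 without one in the anti-PD1 library, and 6224.5 against 3276 in the anti-IgG library.

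Effector cells with a UMI of Pdcd1, the gene of the antibody's target, were 363 of 1314 in the anti-PD1 and 312 of 1172 in the anti-IgG library. Of the 4 receptors measured, Tnfrsf4 was higher in them in both libraries, 1 of 4 against 0.419% of genes, and 0 were lower (0.201% of genes). Tnfrsf4 was 2.96 times higher (2.50 to 3.51) in the anti-PD1 library and 2.98 times (2.39 to 3.73) in the anti-IgG library. Tnfrsf9, with too few anti-IgG UMIs for a call, was 5.03 times (3.82 to 6.69) and 5.21 times (2.74 to 10.4) higher in the same order. Between the libraries, the Tnfrsf1b ratio passed the limit on both sides of this split, at 4.01 (3.30 to 4.89) with and 3.19 (2.78 to 3.68) without a Pdcd1 UMI. The Tnfrsf9 ratio was 4.93 (3.37 to 7.43) with and 5.10 (2.90 to 9.58) without one. The latter came from 74 anti-PD1 and 15 anti-IgG UMIs, below the minimum for a call. Cells with a Pdcd1 UMI were deeper, with medians of 3998 UMIs against 3547 in the anti-PD1 and 4105.5 against 3938 in the anti-IgG library. Pdcd1 itself had a ratio of 1.45 (1.38 to 1.52) in the T gates, under the fold limit.

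At 1000 UMIs per cell, to which every cell was thinned, a UMI of Tnfrsf1b was found in 15.5% (14.5 to 16.6) of 4935 anti-PD1 and 5.03% (4.35 to 5.78) of 3719 anti-IgG T gate cells. Before thinning the shares were 41.7% and 18.0%, and 51 anti-PD1 and 34 anti-IgG cells were too shallow to be thinned. Naive cells had a Tnfrsf1b UMI in 5.66% (4.59 to 6.89) of the anti-PD1 and 1.10% (0.601 to 1.83) of the anti-IgG library. The B gate, at the same depth, had it in 2.92% (0.801 to 7.31) of 137 anti-PD1 cells and in 0 of 59 anti-IgG cells. For 0 cells the share allowed was taken as 3 divided by the number of cells, here 5.08%, an approximate limit. The naive shares thus lay within the range the B gate allows, and those of the other 5 gates in the anti-PD1 library lay above it. The B gate is no negative control, since it had few cells and, before thinning, 24 anti-PD1 and 2 anti-IgG Tnfrsf1b UMIs of its own. Whether naive cells carried Tnfrsf1b therefore cannot be judged against it.

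Tnfrsf9 was found in 28.1% (23.0 to 33.7) of anti-PD1 and 21.4% (16.4 to 27.1) of anti-IgG Foxp3 cells, and in 0 of 137 anti-PD1 B gate cells, which allows up to 2.19%. In the gamma-delta gate it was found in 6.01% (4.43 to 7.93) of anti-PD1 and 1.04% (0.284 to 2.64) of anti-IgG cells. Tnfrsf4 was found in 46.2% (40.3 to 52.1) of anti-PD1 and 38.3% (32.1 to 44.7) of anti-IgG Foxp3 cells, and Tnfrsf18 in 45.8% (40.0 to 51.8) and 39.5% (33.3 to 46.0). The Foxp3 intervals of Tnfrsf9, Tnfrsf4 and Tnfrsf18 overlapped between the libraries. Cd27 was found in 9.65% (8.84 to 10.5) of anti-PD1 and 8.79% (7.90 to 9.75) of anti-IgG T gate cells. Tnfrsf14 was found in 0.871% (0.631 to 1.17) of anti-PD1 and 1.48% (1.12 to 1.92) of anti-IgG T gate cells. Both shares lay under the share that 0 of 137 B gate cells allows. With so few cells the B gate cannot exclude such low shares, so presence of Tnfrsf14 per cell could not be judged against it at this depth.

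**Figure D4:**
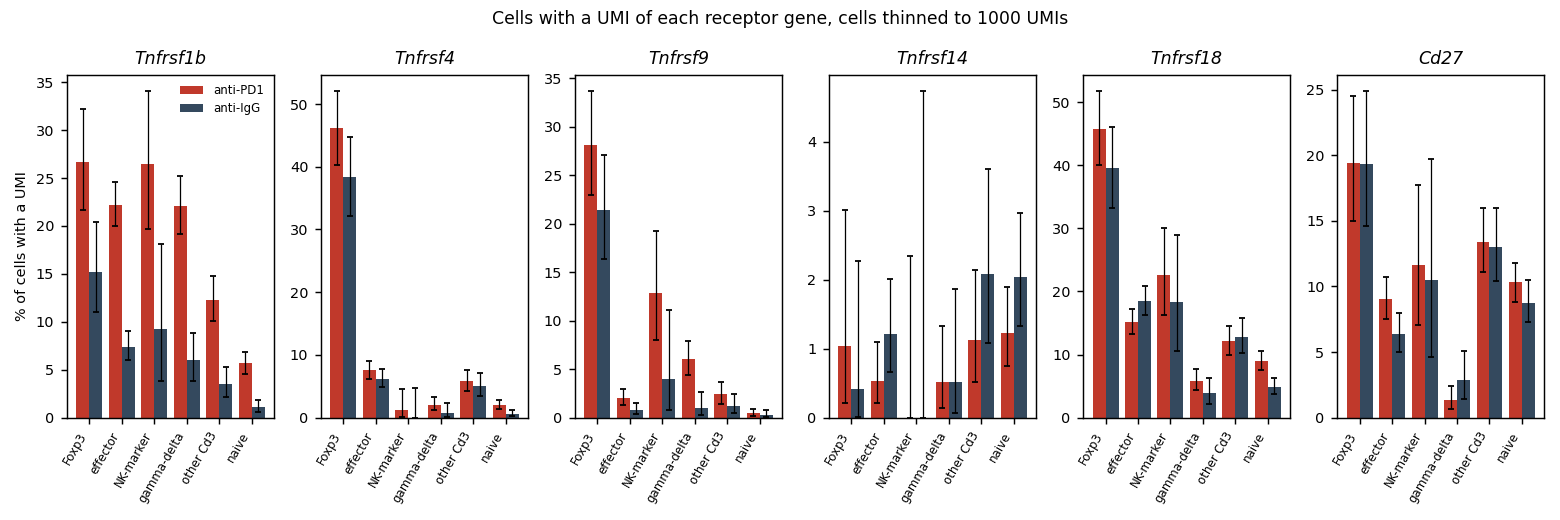
Share of cells with at least 1 UMI of each receptor gene after thinning to 1000 UMIs per cell, by gate, with anti-PD1 in red left of anti-IgG in dark blue. Bars show percent of cells and whiskers exact 95% binomial intervals. Axes differ between genes, and Tnfrsf1b is the gene whose anti-PD1 bars were higher in all 6 gates with intervals that did not overlap.

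Cells with 2 or more of the receptors were more frequent in the anti-PD1 library. Higher shares of single receptors raise this share too, and the share to be expected from the separate genes was not computed. At 2000 UMIs per cell, 2 or more of the 6 were found in 20.9% (19.7 to 22.1) of anti-PD1 and 12.4% (11.3 to 13.6) of anti-IgG T gate cells. In the Foxp3 gate the share was 73.0% (67.2 to 78.2) of anti-PD1 and 63.1% (56.4 to 69.4) of anti-IgG cells, with intervals that overlapped. In the naive gate it was 9.94% (8.48 to 11.6) and 3.64% (2.65 to 4.88). Foxp3 cells with Tnfrsf9 carried Tnfrsf4 in 79.3% (70.5 to 86.4) of anti-PD1 and 73.0% (60.3 to 83.4) of anti-IgG cells, against 45.9% of 159 anti-PD1 and 42.0% of 162 anti-IgG Foxp3 cells without Tnfrsf9. Foxp3 cells with Tnfrsf4 carried Tnfrsf18 in 73.9% (66.4 to 80.5) of anti-PD1 and 76.3% (67.4 to 83.8) of anti-IgG cells, against 50.5% (40.7 to 60.2) and 44.1% (34.7 to 53.9) of those without Tnfrsf4. In neither library was a T gate cell found with all 6.

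The ligands of these receptors did not move together in the T gates. Of 18 TNF family ligands and partners, 12 had enough UMIs, 2 were higher (against 5.47% of all genes) and 2 lower (against 7.92% of all genes), with a median log2 ratio of -0.18 against -0.10 over all genes. Tnfsf9, the ligand of 4-1BB, was higher at 2.11 (1.58 to 2.86), from 172 anti-PD1 and 65 anti-IgG UMIs, and Tnfsf11, the ligand of RANK, at 2.37 (2.10 to 2.67). Btla, the inhibitory partner of HVEM, was lower at 0.535 (0.479 to 0.598), and Tnfsf10, which encodes TRAIL, at 0.622 (0.550 to 0.703). The ligands of TNFR2 differed little: Tnf had a ratio of 0.998 (0.905 to 1.10) and Lta of 0.969 (0.804 to 1.17). For the other HVEM partners the ratio was 0.803 (0.695 to 0.929) for Tnfsf14 and 1.01 (0.901 to 1.13) for Cd160. Tnfsf4, the OX40 ligand, had 21 anti-PD1 and 0 anti-IgG UMIs, below the minimum for a call. Tnfsf18 had 5 anti-PD1 and 1 anti-IgG UMIs, and Cd70 had 7 and 2. In the myeloid gate the Tnfsf9 level was 2.52 (2.15 to 2.94) in anti-PD1 and 0.176 (0.0647 to 0.384) in anti-IgG cells, and the Tnf level was 1.22 (0.962 to 1.51) and 0.206 (0.0828 to 0.424).

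Of 31 TRAF and kappaB genes, which carry or restrain the receptors' signal, 11 were higher (against 5.47% of all genes), 1 was lower (against 7.92% of all genes; Traf5, at 0.655, named after its value was seen) and 19 were neither, with a median log2 ratio of 0.34. The 6 with the largest ratios were Traf4, a TRAF adaptor at 3.15 (2.85 to 3.49), Nfkbid, a nuclear regulator of kappaB factors at 2.94 (2.72 to 3.18), Nfkb2, the subunit of the non-canonical pathway at 1.98 (1.82 to 2.16), Nfkbia, the inhibitor IkappaB alpha at 1.82 (1.77 to 1.86), Relb, the partner of Nfkb2 at 1.77 (1.61 to 1.94), and Tnfaip3, the feedback inhibitor A20 at 1.75 (1.71 to 1.80). Of the 11 other TNF receptor family genes measured, 3 were higher: Tnfrsf12a at 1.93 (1.58 to 2.39), Tnfrsf10b at 1.88 (1.54 to 2.32) and Tnfrsf21 at 1.60 (1.13 to 2.29). Their median log2 ratio was 0.02, and 5.47% of all genes were higher. Of 9 other costimulatory receptors measured, Icos, a CD28 relative, was higher at 2.03 (1.95 to 2.11) and Cd226 was lower at 0.591 (0.559 to 0.626), with a median log2 ratio of -0.11, beside 5.47% of all genes higher and 7.92% lower.

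**Figure D5:**
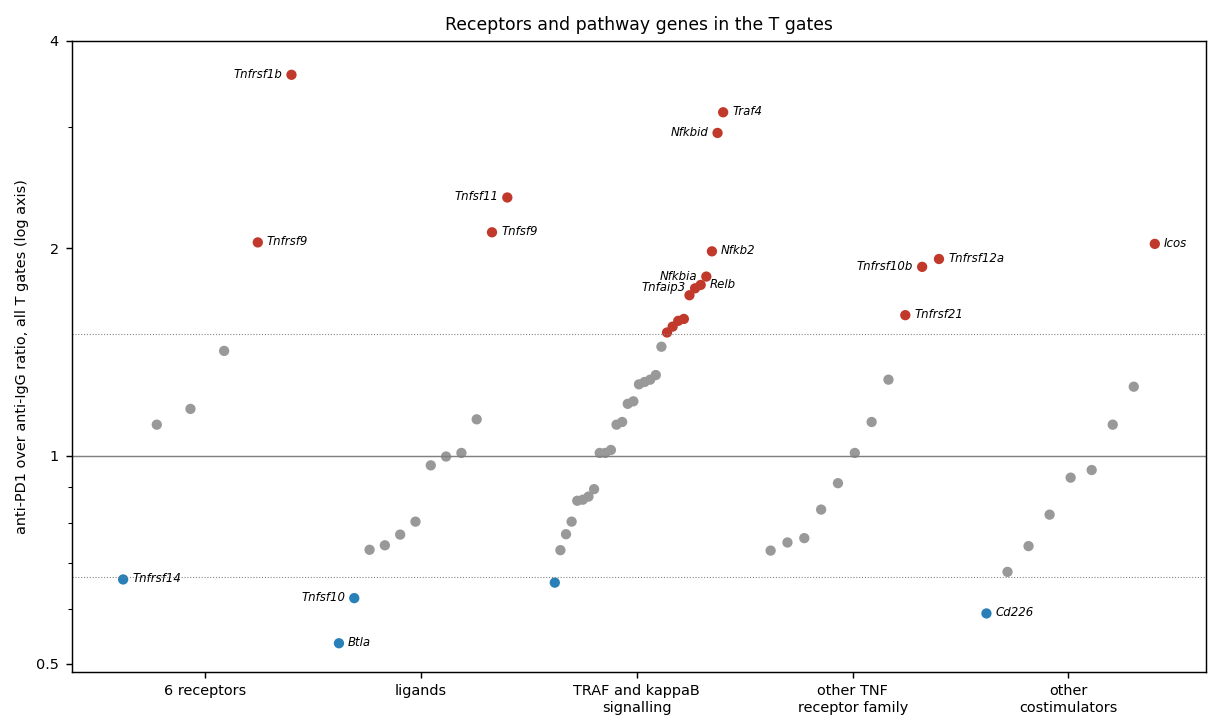
Ratio of the anti-PD1 over the anti-IgG level in all T gates (log axis) for the 6 receptors and 4 lists of pathway genes with at least 100 summed UMIs. Each point is a gene, ordered by ratio within its list, red points were called higher and blue points lower, and up to 6 called genes per list are named. Tnfrsf1b, at 3.57, lay above every gene of the 4 lists, of which Traf4, at 3.15, came nearest.

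Across the 6 T gates and both libraries, 12 points that share libraries and depth, the genes most like each receptor were ranked by Pearson correlation of log2 levels among 9466 genes. Tnfrsf4 was most like Ctla4 (0.979), Tox2 (0.971) and Nab2 (0.968). Tnfrsf18 was most like Ccr8 (0.961), AA467197 (0.960) and Lmbrd1 (0.954), and Tnfrsf9 like Itgav (0.961), Fam216a (0.960) and Gpx4 (0.945). Tnfrsf1b was most like Arpc3 (0.968), Hmces (0.963) and Rnf157 (0.959), Cd27 like Hipk2 (0.959), Cd2 (0.920) and Trbv26 (0.912), and Tnfrsf14 like Abtb2 (0.947), Klhl3 (0.933) and Smchd1 (0.929). Among the receptors themselves the highest value was 0.912, between Tnfrsf4 and Tnfrsf18, and the lowest was -0.727, between Tnfrsf1b and Tnfrsf14.

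Genes that cells switch on early after stimulation or tissue digestion also differed between the libraries. Of 14 such genes 4 were higher (against 5.47% of all genes) and 5 lower (against 7.92% of all genes), with a median log2 ratio of -0.01 and a summed level of 77.3 in the anti-PD1 and 63.8 in the anti-IgG library. Nr4a1, a nuclear receptor induced by T cell receptor signals, was higher at 4.82 (4.59 to 5.07), Atf3 at 7.07 (5.51 to 9.21) and Junb at 1.77 (1.75 to 1.79). Fos was lower at 0.588 (0.573 to 0.602), Jun at 0.570 (0.555 to 0.585) and the heat shock gene Hspa1a at 0.521 (0.489 to 0.555). Cells without a UMI of Nr4a1, Nr4a2 or Nr4a3 were 24.5% of anti-PD1 and 66.0% of anti-IgG T gate cells. In those cells the ratio was 1.88 (1.63 to 2.16) for Tnfrsf1b, 1.11 (0.852 to 1.43) for Tnfrsf9, 0.912 (0.774 to 1.07) for Tnfrsf4 and 0.981 (0.708 to 1.34) for Tnfrsf14. In cells with such a UMI it was 3.14 (2.86 to 3.44) for Tnfrsf1b, 1.34 (1.22 to 1.47) for Tnfrsf9, 1.06 (0.982 to 1.14) for Tnfrsf4 and 0.607 (0.465 to 0.796) for Tnfrsf14. Tnfrsf1b thus passed the fold limit on both sides of this split, Tnfrsf9 on neither, and Tnfrsf14 only in cells with such a UMI. The split pooled all T gates and was matched neither for gate mix nor for depth. Cells without such a UMI had medians of 3152 UMIs in the anti-PD1 and 3759 in the anti-IgG library. Cells with one had medians of 4005 and 4487 in the same order. Myeloid markers in the T gates summed to a level of 0.105 in the anti-PD1 and 0.0784 in the anti-IgG library, where 1 of 8 had enough UMIs, and their part in the Tnfrsf1b difference was not tested.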

How the data were processed

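Single-cell RNA was measured in 2 droplet libraries from mouse heart, with a 3′ kit per the labels' protocols. The authors deposited raw UMI counts, which per the file headers came from Cell Ranger 7.1.0. Cell Ranger 7.2.0 and Seurat 4.4.0, with build mm10, stand in the submitters' processing notes. A T cell sort is named in the design text, but per the labels' protocols the hearts were digested, and red cells and dead cells were removed, with no sorting step.

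The filters were 300 genes and 500 UMIs as minimums and 10% mitochondrial UMIs as the maximum. Gates needed 2 or more marker genes (1 UMI for Foxp3), and cells with UMIs of Cd3 and of another lineage's markers were left out. Scrublet in scanpy 1.11.5 marked 0 cells in both libraries at its automatic threshold, so doublets were not removed in the main values. As an alternative the highest scores were left out at 0.8% per 1000 cells (272 anti-PD1 and 149 anti-IgG cells).

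UMIs were summed per gate and library. Levels have exact Poisson intervals, ratios exact intervals conditional on the summed UMIs, and shares Clopper-Pearson intervals, all at 95% and for counting error only. The share allowed by 0 cells was not such an interval but 3 divided by the number of cells. Cells were not treated as replicates, and no test was made. The code was tested on simulated data. Likeness used log2 of level plus 0.1, for genes with at least 200 UMIs. Named pathway genes were the ligands and partners of the 6 receptors and, in each list, up to 6 called genes by size of ratio, except that Atf3, Nr4a1, Junb, Fos, Jun and Hspa1a were named from the early response list after their values were seen. The receptors, gates and lists were chosen with earlier results of these data known. Motifs were scanned in RefSeq start-site windows, and gene IDs of 6 of 6 receptors matched the reference gene name table. Python 3.11.15, numpy 2.4.6, scipy 1.17.1, pandas 2.3.3 and matplotlib 3.10.9 were used.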

Additional observations from a re-analysis of the deposited data

Results flagged for a closer look

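Cells that carried both Cd3 and markers of another lineage were in no gate and in no comparison above (377 anti-PD1 and 243 anti-IgG cells, with medians of 9138 and 10560 UMIs). They drew attention because receptor levels differed between the libraries in these cells. Their make-up differed as well: the B marker Cd79a had a UMI in 47.7% of anti-PD1 and 23.5% of anti-IgG mixed cells. The myeloid marker Lyz2 had one in 42.2% and 54.3% in the same order. The ratios below were not adjusted for this. The ratio of anti-PD1 to anti-IgG levels was 2.47 (2.13 to 2.88) for Tnfrsf1b, 2.77 (2.22 to 3.46) for Tnfrsf9 and 1.52 (1.32 to 1.76) for Tnfrsf4. For Tnfrsf18 and Cd27 it was 1.34 (1.17 to 1.54) and 1.39 (1.15 to 1.67), under the fold limit. Tnfrsf14 went the other way, at 0.561 (0.323 to 0.962) from 26 anti-PD1 and 34 anti-IgG UMIs, below the minimum for a call. These values were not set against those of all genes in the same cells.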

How the results depend on the processing

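No paired analysis was possible because there was 1 library per antibody. Each ratio over all T gates was recomputed in up to 12 ways. Counts over lists included, 62 such values stayed within the interval of the main value or within 1.5 times the main count, 26 moved and 0 reversed a called direction. In cells without Nr4a UMIs the ratio was 1.88 for Tnfrsf1b, 0.912 for Tnfrsf4, 1.11 for Tnfrsf9, 0.981 for Tnfrsf14 and 0.972 for Tnfrsf18. In cells with them, a split added after the data were seen, it was 3.14 for Tnfrsf1b, 1.06 for Tnfrsf4, 1.34 for Tnfrsf9 and 1.02 for Tnfrsf18. The cause was not tested. Thinned to 1000 UMIs per cell, Tnfrsf1b had 3.29, Tnfrsf4 1.23, Tnfrsf9 1.68 and Tnfrsf18 1.06. With each cell weighted alike, Tnfrsf4 had 1.28 and Tnfrsf18 1.11. Relative to the median gene, Tnfrsf1b had 3.84, Tnfrsf4 1.53, Tnfrsf18 1.25 and Cd27 1.19, and with the same gate mix Tnfrsf4 had 1.52. Without the 10 cells per library that held most UMIs, also added later, Tnfrsf9 had 2.55. Thinning left 1 ligand higher and 1 lower, 2 TRAF and kappaB genes lower and 1 other family receptor lower; that last count was also 1 with a minimum of 50 summed UMIs. Within gates, between gates and for shares, 200 values stayed, 41 moved and 0 reversed. Of the gate ratios that were called, Tnfrsf9 in the NK-marker gate was 1.05 with stricter gates and 9.42 without the 5 cells with most UMIs, and in the gamma-delta gate 11.0 without them.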
